A study of Rattus norvegicus with 8 samples.

Results

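Potassium channel subunits are described here in the rat basolateral amygdala about a week after status epilepticus, a long-lasting seizure after which epilepsy can develop. The set holds 38 genes, chosen by name and with earlier results of these data known. It spans pore-forming subunits of voltage-gated channels and their electrically silent and accessory partners, inward rectifiers, two-pore-domain channels, and channels opened by calcium or sodium. Of the 38 genes, 36 had a probe set annotated to a single symbol, among 14217 genes so named on the array. Of the 36, 31 were bright enough to be tested, among 10364 named genes tested. Kcnb2, Kcnh7, Kcnj9, Kcnk10 and Kcnn1 were measured but too dim, and Kcnf1 and Kcnn2 are named only.

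The epileptogenic paired and epileptogenic unpaired groups came from rats whose amygdala was stimulated until they had status epilepticus, kept only where this was strong by electrode recording, with no spontaneous seizure seen afterwards. The control paired and control unpaired groups came from rats that were operated on and not stimulated. All rats had 5 habituation sessions, and on day 8 after stimulation they went through 2 trials of a 75 dB tone lasting 20 s and a 1.5 mA footshock lasting 1 s. In paired training the tone ended together with the shock, the usual form of fear conditioning. In unpaired training the shock came first and the tone after it, so no group was left without tone and shock. Tissue of the lateral and basal nuclei on the stimulated or operated side was cut out by laser microdissection 3 h after training. Each group has 2 Affymetrix rat expression arrays, lettered A and B, and each array holds amplified RNA pooled from 2 of the group's 4 rats. The 8 arrays thus stand for 16 rats, and age and strain are not given in the sources used here.

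A potassium channel lets potassium leave the neuron and so pulls the membrane back toward rest. Voltage-gated channels end the action potential and hold back the next one, and accessory subunits set how many of them reach the membrane and how fast they close. Inward rectifiers and two-pore-domain channels set the resting potential, and calcium-activated channels carry the afterhyperpolarization. Loss of several of these currents is a known cause of hyperexcitability, and variants in several of the genes cause inherited epilepsies.

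The deposited unit is the signal intensity of the MAS5 program, given here on the log2 scale, and a difference of 1 on that scale is a change by a factor of 2. A gene was read by its brightest probe set, so levels of different genes are hard to compare. They were set against each other only for the filter on dim probe sets, the marker check and a correlation over the members. The array medians lay between signals of 29.0 and 43.2, and correlations between arrays between 0.850 and 0.925. Markers of neurons were checked against the labelled region. The excitatory neuron marker Lmo3 had log2 signals of 8.83 to 9.38 in the epileptogenic arrays and 9.71 to 10.51 in the control arrays, and the enzyme Gad1, of GABAergic neurons in any region, had 10.54 to 11.95 in the epileptogenic and 11.53 to 12.20 in the control arrays. Of the neuron markers listed, Syt1, Tbr1, Pvalb, Sst and Tac1 were below the filter on dim probe sets. Slc17a7, the vesicular glutamate transporter of cortical-type neurons, was tested but low, at 3.98 to 5.89 in the epileptogenic and 5.13 to 5.62 in the control arrays, and Penk and Drd1, known from striatal and central amygdala neurons, were bright. Penk had 9.65 to 11.52 in the epileptogenic and 10.54 to 11.55 in the control arrays. The other tested genes of the striatal and central amygdala list were dimmer, with mean log2 signals from 4.60 (Crh) to 8.26 (Foxp1).

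Most potassium channel subunits had lower estimates in the epileptogenic amygdala, but 0 of the 31 passed the primary test. In the fit of 4 group means with limma, 26 of 31 estimates (83.9%) lay below 0, against 60.2% of all 18625 tested probe sets. The median log2 difference of epileptogenic minus control was -0.49 over the members and -0.11 over all tested probe sets. At an adjusted p under 0.05, 0 members were lower, where 0.827% of all tested probe sets were lower, and 0 members were higher, where 2.81% were. At an unadjusted p under 0.05, 8 members were called, each of them lower, and 3429 of all 18625 probe sets were called in either direction. The 95% interval lay below 0 for 25.8% of members and for 9.77% of all tested probe sets.

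Arrays of the same letter deviated together from their group means, as detailed with the processing, and the fit was therefore also run with the letter as a block. In that fit 10 of the 31 members (32.3%) were lower at an adjusted p under 0.05, where 8.65% of all tested probe sets were lower, and 0 were higher, where 7.58% were. They were Kcna2, Kcnc1, Kcnc2, Kcnd2, Kcnd3, Kcnq5, Kcnv1, Kcnip1, Kcnip4 and Kcnj6. Each member was read by its brightest probe set, while the background holds every tested probe set, so these shares are not like for like. The members were also chosen with earlier results of these data known. With a stricter filter, at the 60th percentile, 11 of 21 members and 14% of all tested probe sets were lower with the block. All 4 epileptogenic arrays lay below all 4 control arrays for 4 members (12.9%), Kcnip4, Kcnq3, Kcnq5 and Kcnc2, against 7.77% of all tested probe sets. The opposite order was found for 0 members and for 7.29% of all tested probe sets. The count of 10 depended on single arrays, and the share of all tested probe sets called lower moved too. It was 5 without the epileptogenic paired array A (3.43% of all tested probe sets) and 6 without the epileptogenic unpaired array B (5.44%). It was 3 without the control paired array B (5.54%), 4 without the control unpaired array B (2.71%), 5 without the control unpaired array A (3.57%) and 6 without the control paired array A (3.99%). Of 8 blocked fits that each left out an array, Kcnd2 and Kcnip4 were called in 8 and Kcnc2 in 7. Kcnd3, Kcnq5, Kcnv1 and Kcnj6 were called in 4, Kcnc1 in 2, Kcnip1 in 1 and Kcna2 in 0.

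**Figure D1:**
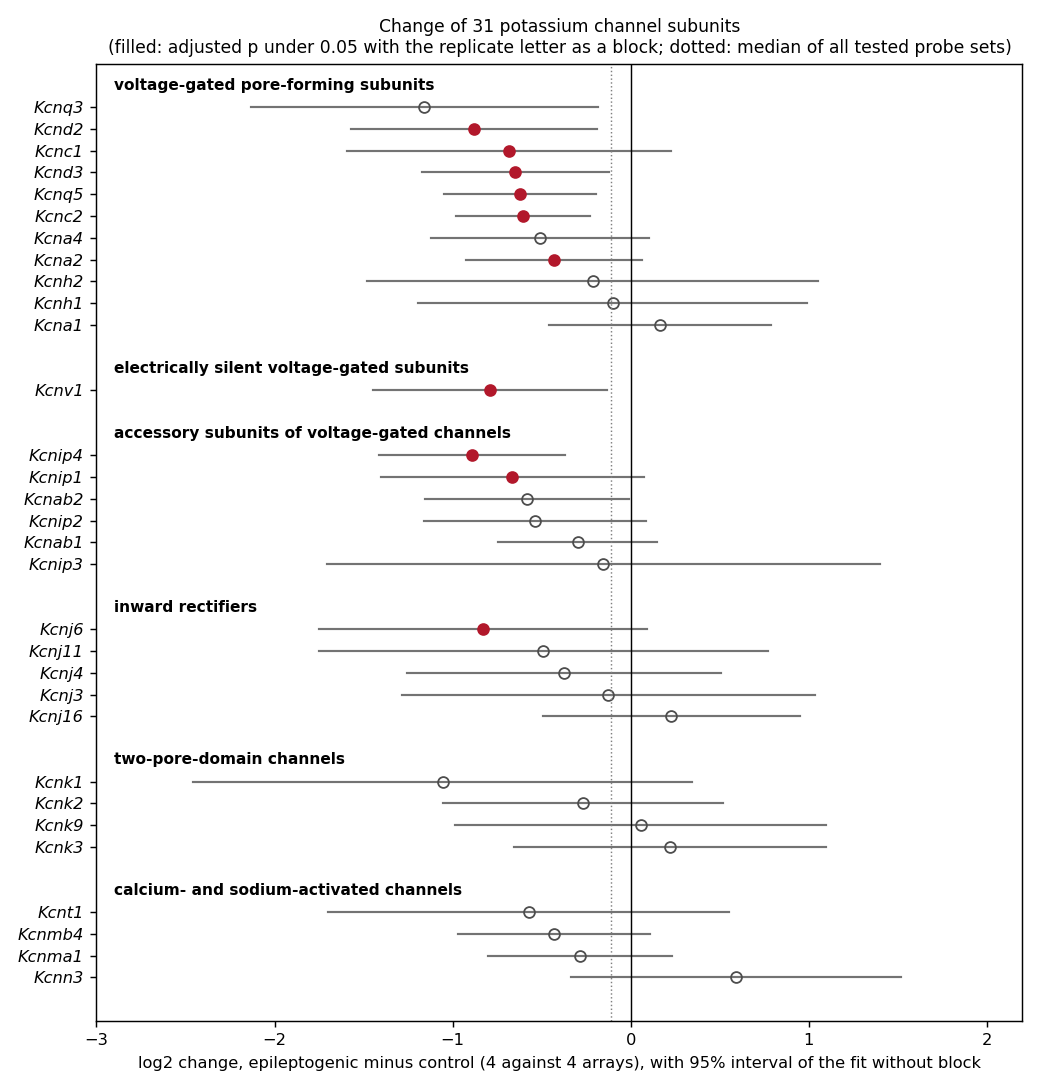
Difference of epileptogenic minus control arrays on the log2 scale (x axis) for the 31 tested potassium channel subunits, grouped by subfamily, with 95% intervals of the fit without block. Filled points are the 10 members with an adjusted p under 0.05 once the letter was a block, and the dotted line is the median of all tested probe sets; 26 of the 31 points lie below 0.

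Bulk tissue was measured, so fewer neurons and less RNA per neuron cannot be told apart. The pan-neuronal markers had a median log2 difference of -0.56 over 13 tested genes, of which 0 passed the primary test and 7 (53.8%) were lower in the blocked fit. Their mean level relative to the control mean lay between -0.62 and -0.36 in the epileptogenic arrays and between -0.09 and 0.13 in the control arrays. The same mean over the 31 channel members lay between -0.81 and -0.19 in the epileptogenic and between -0.13 and 0.11 in the control arrays. Excitatory neuron markers had a median of -0.86, with 3 of 10 tested genes lower in the primary fit and 6 in the blocked fit. GABAergic interneuron markers had a median of -0.32, with 1 of 8 lower in the primary fit and 2 in the blocked fit. Microglia and macrophage markers had a median of 2.37, with 11 of 12 higher in both fits, and their array means lay between 1.90 and 2.54 in the epileptogenic and between -0.60 and 0.29 in the control arrays. Astrocyte markers had a median of 0.36, with 4 of 11 higher in the primary fit and 5 in the blocked fit. Oligodendrocyte markers had a median of 0.59, with 1 of 10 higher in the primary fit and 4 in the blocked fit, and endothelial and mural markers one of 0.35, with 0 and 1 of 10 higher. Striatal and central amygdala markers had a median of -0.11, with 0 of 10 passing the primary test and 1 higher in the blocked fit. Their array means lay between -0.96 and 0.63 in the epileptogenic and between -0.22 and 0.47 in the control arrays. The epileptogenic unpaired array B was the lowest, as it was for the channel members, at -0.81. The part of these cell types in the channel values was not tested.

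**Figure D2:**
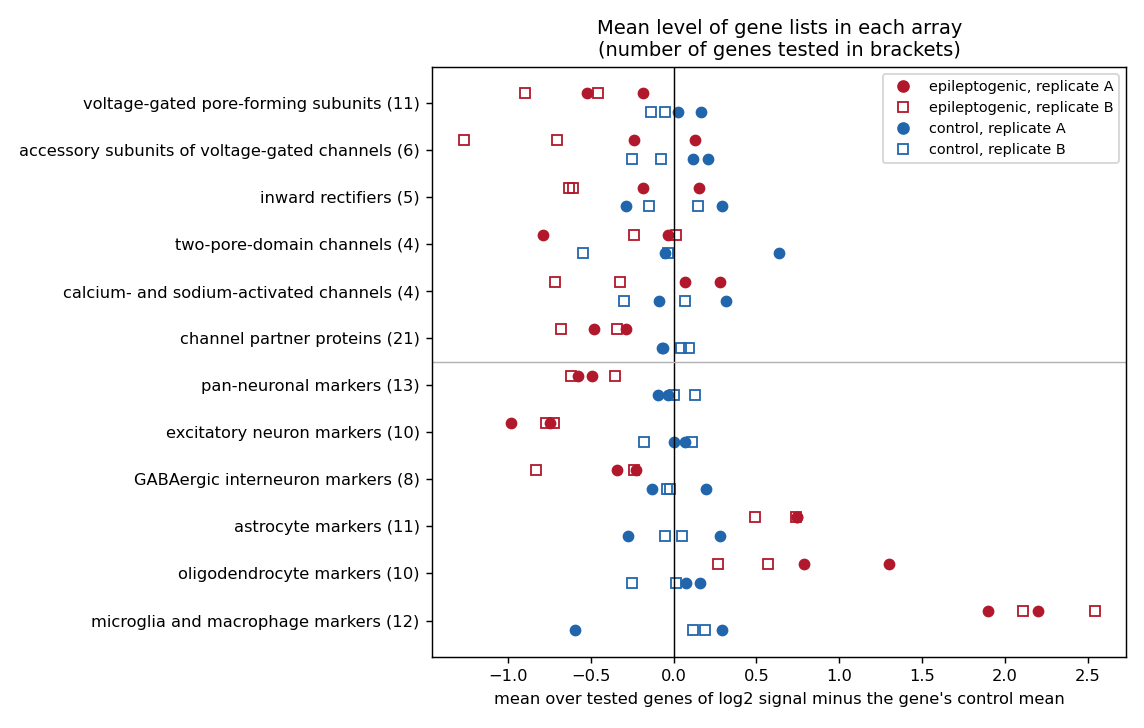
Mean log2 signal relative to the mean of the 4 control arrays (x axis), for each array and each list of genes, with the number of tested genes in brackets. Epileptogenic arrays are drawn above control arrays in each row, with filled circles for letter A and open squares for letter B. Among the channel subfamilies drawn only the voltage-gated subunits separate the groups, narrowly, with epileptogenic means up to -0.18 and control means from -0.14. The partner proteins and all cell type lists drawn also separate them, and microglia markers lie highest in the epileptogenic arrays.

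Among the voltage-gated pore-forming subunits 11 of 13 were tested, with a median log2 difference of -0.60. Of these 11 estimates 10 lay below 0, as did 60.2% of all tested probe sets. None passed the primary limma test (0 of 11), and 6 were lower in the blocked fit, where 8.65% of all tested probe sets were. Kcnd2 and Kcnd3 encode Kv4.2 and Kv4.3, which carry the A-type current of dendrites and cell bodies. Kcnd2 had log2 signals of 10.24 (A) and 9.34 (B) in the epileptogenic paired arrays and 9.38 and 9.07 in the epileptogenic unpaired arrays, against 10.69 and 9.96 in the control paired and 11.01 and 9.90 in the control unpaired arrays. Letter A was the higher one in each group, and within each letter both epileptogenic arrays were below both control arrays. The log2 difference of Kcnd2 was -0.88 ± 0.31 (SE), with an adjusted p of 0.165 in the primary limma fit and 0.00340 with the block. A second tested probe set of Kcnd2 gave -0.66 with an adjusted p of 0.157, and 0.0445 with the block.

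Kcnd3 had 8.03 and 8.71 in the epileptogenic paired and 8.03 and 8.14 in the epileptogenic unpaired arrays, against 8.82 and 9.35 in the control paired and 8.42 and 8.90 in the control unpaired arrays. The epileptogenic paired array B lay inside the control range, and the other epileptogenic arrays lay below it. Its log2 difference was -0.65 ± 0.23 (SE), with an adjusted p of 0.176, and 0.0131 with the block. The second tested probe set of Kcnd3 separated the groups completely, at -0.86 with an adjusted p of 0.0680, and 0.00736 with the block.

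Kcnc1 and Kcnc2 encode Kv3.1 and Kv3.2, the fast channels that let interneurons fire at high rates. Kcnc2 had 9.58 and 9.40 in the epileptogenic paired and 8.83 and 8.64 in the epileptogenic unpaired arrays, against 9.60 and 9.74 in the control paired and 9.67 and 9.86 in the control unpaired arrays. The groups did not overlap, although the epileptogenic paired array A lay just under the lowest control array. Its log2 difference was -0.60 ± 0.17 (SE), with an adjusted p of 0.0882, and 0.0110 with the block. A second tested probe set of Kcnc2, much dimmer, gave -0.01 with an adjusted p of 0.993. Kcnc1 had 7.35 and 6.35 in the epileptogenic paired and 6.74 and 5.85 in the epileptogenic unpaired arrays, against 7.88 and 6.97 in the control paired and 7.82 and 6.37 in the control unpaired arrays. The groups overlapped, and letter B was the lower one in each group, with B minus A at -1.06. The difference of Kcnc1 was -0.68 ± 0.40 (SE), with an adjusted p of 0.410, and 0.0252 with the block. It was -0.43 without the epileptogenic paired array B, -0.32 without the control unpaired array A and -1.05 without the control unpaired array B.

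Kcnq3 and Kcnq5 encode Kv7 subunits of the M-current, which damps repetitive firing, and both separated the groups. Kcnq5 had 8.12 and 8.30 in the epileptogenic paired and 8.07 and 7.98 in the epileptogenic unpaired arrays, against 8.61 and 8.44 in the control paired and 9.19 and 8.72 in the control unpaired arrays. Its log2 difference was -0.62 ± 0.19 (SE), with an adjusted p of 0.116, and 0.0182 with the block. Its further probe sets were below the filter and gave 0.08 and 0.47, and the mean of its probe sets gave -0.02. Kcnq3 had 3.82 and 4.35 in the epileptogenic paired and 4.24 and 3.71 in the epileptogenic unpaired arrays, against 5.16 and 4.82 in the control paired and 6.02 and 4.76 in the control unpaired arrays. Kcnq3 had the lowest estimate among the members, at -1.16 ± 0.43 (SE), with an adjusted p of 0.190, and 0.0787 with the block, and it was -0.71 with an offset of 16 added before the logarithm. Its mean in the epileptogenic arrays, 4.03, lay under the filter level of log2 4.35, a signal of 20.3.

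Kcna2 encodes Kv1.2, an axonal channel that limits repetitive firing. It had 8.00 and 8.45 in the epileptogenic paired and 8.06 and 8.42 in the epileptogenic unpaired arrays, against 8.46 and 8.88 in the control paired and 8.41 and 8.90 in the control unpaired arrays. Within each letter the epileptogenic arrays were the lower ones, and across letters the groups overlapped. The difference of Kcna2 was -0.43 ± 0.22 (SE), with an adjusted p of 0.338, and 0.0434 with the block, a call lost whichever array was left out. A dim further probe set gave 0.34, and the mean of both gave -0.05. The other tested pore-forming subunits passed neither fit: Kcna4, of the fast-inactivating axonal Kv1.4 channel, gave -0.51, Kcnh2 of the ERG channel -0.21, Kcnh1 of the ether-à-go-go channel -0.10, and Kcna1, the axonal Kv1.1 subunit linked to episodic ataxia, 0.16.

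**Figure D3:**
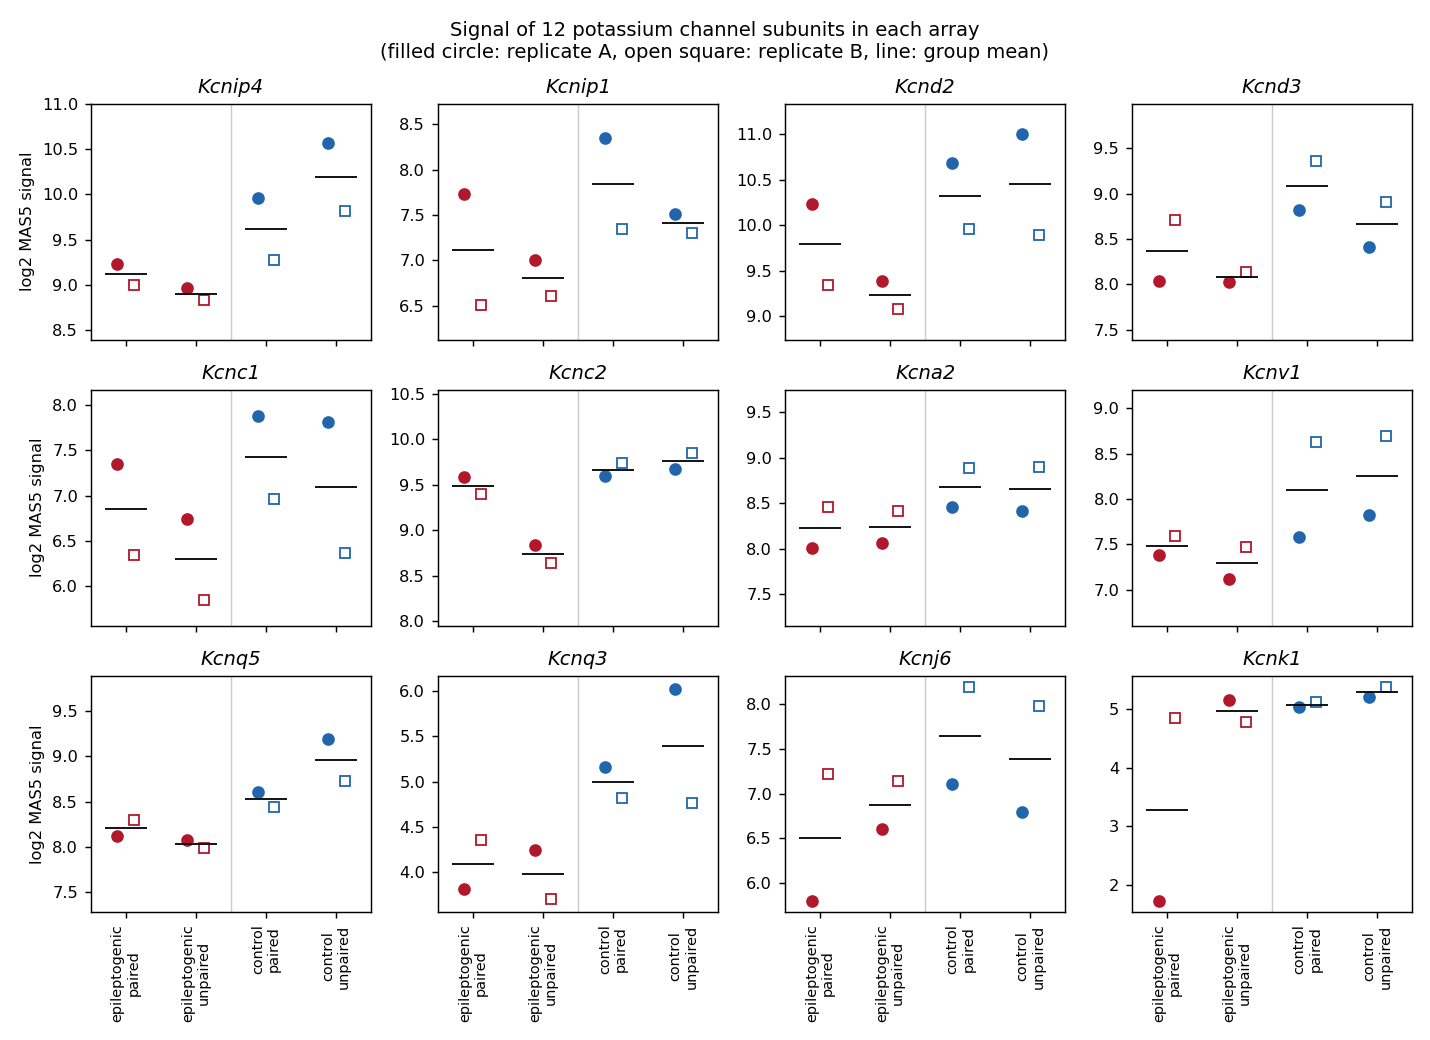
log2 MAS5 signal (y axis, 2 arrays per group) of 12 potassium channel subunits in the epileptogenic paired, epileptogenic unpaired, control paired and control unpaired groups. Filled circles are letter A, open squares letter B and lines group means; Kcnip4, Kcnc2, Kcnq5 and Kcnq3 show no overlap between epileptogenic and control arrays, and Kcnc1 and Kcnj6 show gaps between letters as wide as those between groups.

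The single tested silent subunit was Kcnv1, which forms no channel alone and is known to modify Kv2 channels. Kcnv1 had 7.38 and 7.59 in the epileptogenic paired and 7.12 and 7.47 in the epileptogenic unpaired arrays, against 7.58 and 8.62 in the control paired and 7.82 and 8.69 in the control unpaired arrays. The epileptogenic arrays stood close together and only touched the control range, at the control paired array A. Its log2 difference was -0.79 ± 0.29 (SE), with an adjusted p of 0.184, and 0.0147 with the block.

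All 6 accessory subunits were tested, and all 6 estimates lay below 0, with a median of -0.56. None passed the primary limma test (0 of 6), and 2 were lower in the blocked fit, where 8.65% of all tested probe sets were. Both were KChIPs, the calcium-binding partners of Kv4 channels. Kcnip4 had 9.23 and 9.01 in the epileptogenic paired and 8.97 and 8.84 in the epileptogenic unpaired arrays, against 9.96 and 9.28 in the control paired and 10.56 and 9.81 in the control unpaired arrays. The groups did not overlap, and the epileptogenic arrays (9.01 ± 0.16, SD, n = 4) were tighter than the control arrays (9.90 ± 0.53, SD, n = 4). Each SD spans both trainings and both letters, so it is not the spread between replicates alone. Kcnip4 had the smallest p among the members, with a difference of -0.89 ± 0.23 (SE), an adjusted p of 0.0734 in the primary limma fit, and 0.00313 with the block. Kcnip1 had 7.73 and 6.50 in the epileptogenic paired and 7.01 and 6.60 in the epileptogenic unpaired arrays, against 8.35 and 7.34 in the control paired and 7.51 and 7.30 in the control unpaired arrays. One epileptogenic array, the paired array A, lay inside the control range of Kcnip1. Its difference was -0.66 ± 0.33 (SE), with an adjusted p of 0.321, and 0.0477 with the block. It was -0.36 without the epileptogenic paired array B and -0.41 without the control paired array A.

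The KChIP genes Kcnip2 and Kcnip3 gave -0.54 and -0.15, and the Kv beta subunits Kcnab2 and Kcnab1, which speed inactivation of or traffic Kv1 channels, gave -0.58 and -0.30. Kcnab2 came nearest to a call, at an adjusted p of 0.264, and 0.0514 with the block. The 8 members of the A-type complex (Kcna4, Kcnd2, Kcnd3, Kcnip1 to Kcnip4 and Kcnab1) all had estimates below 0, with a median of -0.59, and 4 were lower in the blocked fit. The 4 members of the axonal Kv1 complex had a median of -0.36, with 1 lower in the blocked fit. Over all tested probe sets 60.2% of estimates lay below 0, and 8.65% were lower in the blocked fit. Of the pan-neuronal markers, 13 of 13 estimates lay below 0, with a median of -0.56, and 7 of 13 were lower in the blocked fit.

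Of 6 inward rectifiers 5 were tested, with a median of -0.37. None passed the primary test (0 of 5), and 1 was lower in the blocked fit, where 8.65% of all tested probe sets were. This was Kcnj6, which encodes the G-protein-gated subunit GIRK2 that works downstream of GABA-B receptors. Kcnj6 had 5.80 and 7.22 in the epileptogenic paired and 6.60 and 7.14 in the epileptogenic unpaired arrays, against 7.10 and 8.20 in the control paired and 6.80 and 7.98 in the control unpaired arrays. Letter B was the higher one in each group, by 1.06 on average, and the groups overlapped. Within each letter both epileptogenic arrays were below both control arrays. The difference of Kcnj6 was -0.83 ± 0.41 (SE), with an adjusted p of 0.321, and 0.0145 with the block. It was -0.47 without the epileptogenic paired array A and -0.53 without the control unpaired array B. Further tested probe sets of Kcnj6 gave -0.51, with an adjusted p of 0.371 with the block, and -0.04, with 0.963. The partner GIRK1, Kcnj3, had 3 tested probe sets of similar brightness, which disagreed in size: the brightest gave -0.12, another -1.46 with an adjusted p of 0.376, and 0.0533 with the block, and the last -0.52. Values without a call were those of the ATP-sensitive subunit Kcnj11 at -0.49, the strong rectifier Kcnj4 at -0.37, and the glial subunit Kcnj16 at 0.23.

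Of 5 two-pore-domain channels 4 were tested, with a median of -0.10, and none passed either fit (0 of 4). Kcnk1, the TWIK1 channel, had the smallest p among them. It had 1.73 and 4.85 in the epileptogenic paired and 5.16 and 4.78 in the epileptogenic unpaired arrays, against 5.03 and 5.12 in the control paired and 5.21 and 5.38 in the control unpaired arrays. The epileptogenic paired array A stood far below all others. The difference of Kcnk1 was -1.06 ± 0.62 (SE), with an adjusted p of 0.410, and 0.230 with the block, and it was -0.28 without that array, -1.84 without the epileptogenic paired array B and -0.49 with the offset. The mechanically gated TREK1 channel, Kcnk2, gave -0.27, and the acid-sensitive TASK channels Kcnk9 and Kcnk3 gave 0.06 and 0.22.

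Of 6 calcium- and sodium-activated members 4 were tested, with a median of -0.36, and none passed either fit (0 of 4). Kcnmb4, the neuronal beta subunit of the BK channel, had the smallest p, with 6.95 and 6.84 in the epileptogenic paired and 6.75 and 6.02 in the epileptogenic unpaired arrays, against 7.24 and 6.88 in the control paired and 7.23 and 6.92 in the control unpaired arrays. The groups overlapped at the epileptogenic paired array A. Its difference was -0.43 ± 0.24 (SE), with an adjusted p of 0.383, and 0.124 with the block, and it was -0.25 without the epileptogenic unpaired array B. The BK pore subunit Kcnma1 gave -0.28, the sodium-activated channel Kcnt1 -0.57, and the small-conductance channel SK3, Kcnn3, 0.59, the highest estimate among the 31.

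Many members differed between the letters. Their median log2 difference of letter B minus letter A was -0.40, against -0.04 over all tested probe sets. Within letter A the median of epileptogenic minus control was -0.27, against -0.14 over all tested probe sets, and within letter B it was -0.62, against -0.06. Estimates were below 0 in both letters for 20 members, above 0 in both for 2, and of opposite sign for 9. These counts were not made over all tested probe sets, so they have no background beside them. The log2 ratio of the 3' to the 5' probe set of beta-actin, which rises as RNA shortens, was 1.87 to 3.63 in the A arrays and 3.82 to 4.45 in the B arrays. That of hexokinase was -1.96 to 0.41 in the A arrays and 0.03 to 2.82 in the B arrays, overlapping, and that of GAPDH was 3.35 to 4.19 in the A arrays and 3.09 to 3.69 in the B arrays, lower in B in both epileptogenic groups. Between the groups the beta-actin ratio overlapped, at 3.07 to 4.45 in the epileptogenic and 1.87 to 4.42 in the control arrays. The part of RNA length in the channel values was not tested. Across the 31 members the log2 difference correlated with the mean log2 signal at r = -0.32 and rho = -0.34, a description over genes that share the same 8 arrays.

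A split by training asks whether the difference between epileptogenic and control rats was alike after paired and after unpaired training. The members' median was -0.31 after paired training and -0.60 after unpaired training, against -0.06 and -0.14 over all tested probe sets. Pan-neuronal markers had -0.46 after paired and -0.64 after unpaired training, and striatal and central amygdala markers 0.62 and -0.47. The part of tissue content in the members' split was not tested. After paired training 0 of 31 passed in limma, where 0.532% of all tested probe sets passed in either direction. An unadjusted p under 0.05 was found for 1 of 31 members and for 1847 of all 18625 probe sets. After unpaired training 0 of 31 passed, where 0.317% of all tested probe sets passed. An unadjusted p under 0.05 was then found for 10 of 31 members and for 2328 of all 18625 probe sets. With the block 1 member was lower after paired training (background 1.17%) and 5 after unpaired training (background 3.61%). Of the 21 members with an estimate below 0 after both trainings, 14 had the lower one after unpaired training, and Kcnj16 alone was above 0 after both. The matching counts over all tested probe sets were not made.

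The single member lower with the block after paired training was Kcnj6, at -1.14 ± 0.58 (SE) with an adjusted p of 0.568, and 0.0376 with the block. It gave -0.51 after unpaired training. The 5 members lower with the block after unpaired training were Kcnip4, Kcnd2, Kcnc2, Kcnv1 and Kcnq5. Kcnip4 gave -0.50 after paired and -1.28 ± 0.33 (SE) after unpaired training, where its adjusted p was 0.157, and 0.00725 with the block. Kcnd2 gave -0.53 after paired and -1.23 ± 0.43 (SE) after unpaired training, where its adjusted p was 0.291, and 0.00888 with the block. Kcnc2 gave -0.18 after paired and -1.03 ± 0.24 (SE) after unpaired training, where its adjusted p was 0.121, and 0.0109 with the block. The other 2, Kcnv1 and Kcnq5, gave -0.62 and -0.32 after paired and -0.96 and -0.93 after unpaired training. Among values that passed no fit, Kcnd3 gave -0.72 and Kcnk3 1.31 after paired training, and Kcnn3 gave 1.47 after unpaired training. The control arrays behind the values of Kcnk3 and Kcnn3 lay under the filter level of log2 4.35.

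**Figure D4:**
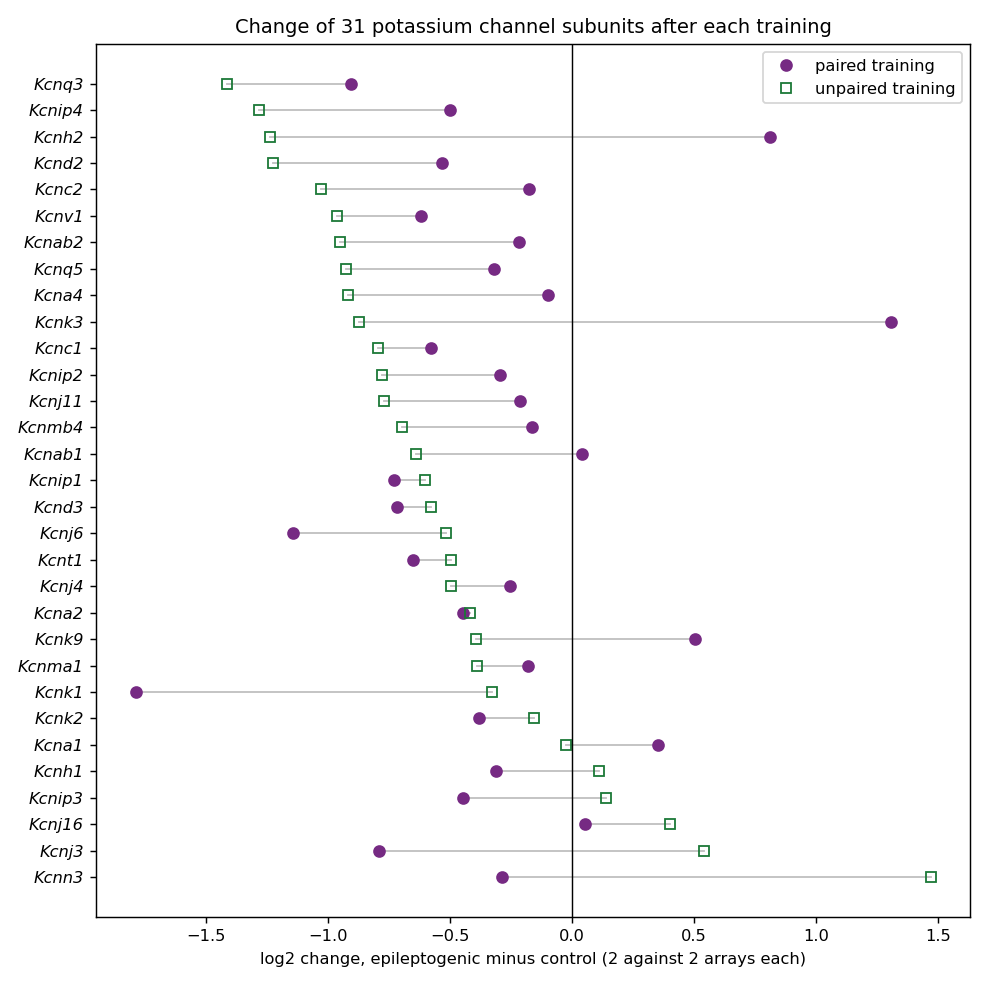
Difference of epileptogenic minus control arrays on the log2 scale (x axis, 2 against 2 arrays each) for the 31 tested members, with filled circles after paired and open squares after unpaired training. Squares lie left of circles for Kcnip4, Kcnd2 and Kcnc2, and Kcnj6 and Kcnk1 show the opposite order; the difference between the trainings passed for 0 members.

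The difference between these responses was tested as an interaction, epileptogenic paired minus epileptogenic unpaired, less control paired minus control unpaired. In limma 0 of 31 members and 0% of all tested probe sets passed, with or without the block, and an unadjusted p under 0.05 was found for 2 of 31 members and 274 of all 18625 probe sets. Their values, and those of the next members by p in the other direction, were 2.18 ± 0.78 (SE) for Kcnk3, 0.85 ± 0.33 (SE) for Kcnc2, -1.76 ± 0.82 (SE) for Kcnn3 and -1.33 ± 1.03 (SE) for Kcnj3. Kcnk3 had 4.65 and 4.97 in the epileptogenic paired and 4.50 and 4.64 in the epileptogenic unpaired arrays, against 3.85 and 3.15 in the control paired and 5.64 and 5.24 in the control unpaired arrays. Both control paired arrays of Kcnk3 lay under the filter level, as did both control unpaired arrays of Kcnn3, at 3.79 and 3.74, so the sizes of their differences rest on dim signals.

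Paired against unpaired training, over all rats, asks what the coupling of tone and shock adds. In limma 0 of 31 members and 0% of all tested probe sets passed, and an unadjusted p under 0.05 was found for 0 members and 214 of all 18625 probe sets. The smallest p were those of Kcnk3 at -0.85 and Kcnk1 at -0.95, and of Kcnc2 at 0.33 and Kcnip3 at 1.23. In epileptogenic rats 0 passed, and an unadjusted p under 0.05 was found for 1 of 31 members, Kcnc2 at 0.75 ± 0.24 (SE), and 228 of all 18625 probe sets, while Kcnk1 gave -1.68. In control rats 0 passed, and an unadjusted p under 0.05 was found for 2 of 31 members, Kcnk3 at -1.94 ± 0.55 (SE) and Kcnn3 at 1.58 ± 0.58 (SE), and 313 of all 18625 probe sets. In each of these 2 comparisons 0% of all tested probe sets passed, and the block left the counts of members at 0.

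Proteins that bind or regulate these channels were read from a separate list. Of 21 tested partners 20 had an estimate below 0, as had 60.2% of all tested probe sets. The partners' median was -0.51, against -0.11 over all tested probe sets and -0.56 over the pan-neuronal markers. One fell in the primary fit: Dpp10, a transmembrane partner that speeds Kv4 channels, had 7.15 and 7.47 in the epileptogenic paired and 7.15 and 7.44 in the epileptogenic unpaired arrays, against 7.99 and 8.08 in the control paired and 8.36 and 8.21 in the control unpaired arrays. The groups did not overlap. The difference of Dpp10 was -0.86 ± 0.19 (SE), with an adjusted p of 0.0447, and 0.00481 with the block. Its call was lost when any 1 array was left out, with adjusted p between 0.0738 and 0.142. With the block 9 partners (42.9%) were lower, against 8.65% of all tested probe sets and 53.8% of the pan-neuronal markers. They included the GABA-B receptor subunits Gabbr2 at -1.03 and Gabbr1 at -0.55, which open GIRK channels through G proteins. The regulators of G-protein signalling Rgs4 at -0.74 and Rgs7 at -0.62 were also among them. The others were Amigo1, a Kv2 partner, at -0.95, the axonal Kv1 organizers Lgi1 at -0.74, Cntnap2 at -0.70 and Adam22 at -0.55, and Dpp10. Dpp6, the other Kv4 partner of this kind, gave -0.51 with an adjusted p of 0.274, and 0.0630 with the block.

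Potassium channel genes outside the 38 were read in the same way. Of 55 listed genes 39 had a probe set and 14 were tested, with a median of -0.36. In limma 0 of 14 passed in either fit. The smallest p were those of Kcnj5, the GIRK4 subunit, and of Kcns3, a silent partner of Kv2. Kcnj5 had 5.53 and 6.14 in the epileptogenic paired and 5.43 and 6.28 in the epileptogenic unpaired arrays, against 4.90 and 4.50 in the control paired and 5.33 and 4.36 in the control unpaired arrays. All epileptogenic arrays of Kcnj5 were above all control arrays, at 1.07 ± 0.36 (SE) with an adjusted p of 0.152, and 0.0616 with the block. Kcns3 gave -0.79 ± 0.29 (SE), with an adjusted p of 0.176, and 0.0717 with the block.

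Start sites of 25 of the 38 members were found in RefSeq's promoter table (GRCr8 build), among 27457 genes with a window there. The median GC content of the 250 bases upstream was 65.2% for the members and 52% for all windows. In these 250 bases, read on both strands, the GC box (letters GGGCGG) was found in 11 of 25 members (44%), against 32.4% of all windows, and the TATA box (TATAAA) in 0 of 25, against 13.1%. The cyclic AMP response element (TGACGTCA) was found in 0 of 25 members, against 1.7% of all windows, and its 5-letter core (TGACG), which is part of it, in 5 of 25 (20%), against 19%. The left and right parts of the RE1 element of neuronal genes, TTCAGCACC and GGACAGCG, were found in 0 members each, against 0.317% and 1.03% of all windows. Such matches describe letters and show no binding. For the full cyclic AMP response element and both RE1 parts, rare in all windows, 0 of 25 was the likely count and says little. Of the 10 members lower in the blocked fit 8 had a window, and the 100 bases before the annotated start are printed for 4 of them, chosen after their values were seen, to set 2 windows without a GC box beside 2 with one. Capitals mark the GC box, written as GGGCGG or as its reverse complement CCGCCC.
Kcnd2, chr4:50742385-50742484, plus strand: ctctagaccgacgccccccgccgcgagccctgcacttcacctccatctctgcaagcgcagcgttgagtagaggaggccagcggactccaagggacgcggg
Kcnc2, chr7:49587514-49587613, plus strand: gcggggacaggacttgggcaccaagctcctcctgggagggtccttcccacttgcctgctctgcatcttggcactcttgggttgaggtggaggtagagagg
Kcnj6, chr11:47778349-47778448, minus strand: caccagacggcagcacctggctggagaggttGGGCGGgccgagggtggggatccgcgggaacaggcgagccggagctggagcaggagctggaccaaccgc
Kcna2, chr2:197393430-197393529, plus strand: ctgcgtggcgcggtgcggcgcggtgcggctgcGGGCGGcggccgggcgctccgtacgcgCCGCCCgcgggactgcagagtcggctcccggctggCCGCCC
The window of Kcna2 holds 3 GC boxes and that of Kcnj6 holds 1, while those of Kcnd2 and Kcnc2 hold 0. The same 100 bases of Kcnd3, Kcnc1, Kcnq5 and Kcnip1, not printed here, hold 0 as well.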

How the data were processed

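The deposited values are linear signal intensities, which the authors made with MAS5, per the submitters' processing notes (version not stated). They were taken to log2 without renormalizing. Control probe sets (57) were dropped, and the 18625 of 31042 others whose mean lay above the 40th percentile were tested. Single-symbol probe sets (20826; 436 had several symbols and 9780 none) named the genes. The R package limma (3.58.1, R 4.3.3) gave the tests, with an intensity trend, two-sided, with Benjamini-Hochberg adjustment over 18625 probe sets at 0.05. The code was tested on simulated log2 changes of 2 and 3 between epileptogenic and control arrays. These are larger than the estimate of any member in that comparison, and recovery of smaller changes was not tested. Genes given in full passed either fit, separated the 4 epileptogenic from the 4 control arrays, or had the smallest p of a subfamily or comparison. Deviations of like-lettered arrays from their group means correlated at 0.321 to 0.407 in all 6 group pairs, so the letter was also fitted as a block; what A and B stand for is not stated. No label says that the letters mark a shared batch. The members and lists were chosen with earlier results of these data known. Replicates are arrays of pooled rats, and their number limits the precision. Figures used matplotlib 3.10.9.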

Additional observations from a re-analysis of the deposited data

Results flagged for a closer look

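Among the 62 sets of 4 arrays examined for the 31 tested members, 4 held an array whose gap to the nearest of the other 3 was a large enough share of the whole range to pass Dixon's 95% critical value, and chance gives about 1 such set in 20. Kcnk1 had a log2 signal of 1.73 in the epileptogenic paired array A, and the nearest epileptogenic array was at 4.78. Kcnd3 had 8.71 in the epileptogenic paired array B, and the nearest epileptogenic array was at 8.14. Kcnab1 had 9.58 in the epileptogenic unpaired array B, and the nearest epileptogenic array was at 10.29. Kcnab2 had 7.03 in the control paired array B, and the nearest control array was at 7.33. The causes were not tested.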

How the results depend on the processing

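With the letter as a replicate block, 10 members were lower in epileptogenic arrays, 5 after unpaired and 1 after paired training, against 0 in each case without it; the block changed no other count of members. Within letter B alone, on 1 residual degree of freedom, 12 members and 3007 of all 18625 probe sets passed, with 7 of the 12 among those 10, and 1 passed for paired against unpaired training; within letter A alone 0 passed. The other normalizations, offset, filters, variance settings and probe set rule, and leaving out each array, left the unblocked counts at 0. The members' median of -0.49 was -0.27 for the A arrays alone and -0.62 for the B arrays alone, and ran from -0.64 (without the epileptogenic unpaired array A) to -0.25 (without array B of that group); all tested probe sets had -0.14 and -0.06 in the A and B arrays. Median centring moved the median of all tested probe sets from -0.11 to -0.005 and that of the members to -0.39. With the block, 8 members were lower after quantile normalization (6.58% of all tested probe sets), 11 with the offset (9.27%) and 5 with median centring (4.14%). Without the filter 9 of 36 members were lower with the block (4.27%), and with the stricter filter 11 of 21 (14%). The blocked count of 10 ran from 3 to 9 with an array left out and was 5 with median centring; these alternatives were chosen after seeing the data. Dpp10 lost its call with median centring (adjusted p 0.242), without the intensity trend (0.0915) and within letter A (0.0570). Of 12 dim further probe sets of these 10 members 7 had the same sign and 5 the opposite one: 0.0112 for Kcnd3, 0.0839 and 0.473 for Kcnq5, 0.114 for Kcnc2 and 0.340 for Kcna2. The causes of these changes were not tested. Low signal kept 5 members and these further probe sets out of the tests.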
